A study of Mus musculus with 4 samples.

Results

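Peaks of m6A that were annotated to a 5′-UTR but lay over 300 bases from the start of their assigned transcript were examined in mouse spinal cord. A peak was a member when the deposited annotation placed it in a 5′-UTR and the distance from its edge to the start of the assigned transcript was above 300 bases. The 5′-UTR need not be that of the assigned transcript. In CCI the Ncaph2 member, of 511 exonic bases, began 16597 bases into an assigned transcript of 17108 and reached its end. In sham the D17H6S53E member had 1530 exonic bases, and its assigned transcript spans 538. The CCI list held 1089 such peaks of 33556, and the sham list held 1150 of 34406, which makes 2239 members among 67962 peaks in all. The rule used only position, so the fold enrichment of the members and its change between the lists were not used to choose them.

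The tissue was spinal cord of male C57BL/6J mice aged 6 to 8 weeks, taken on day 7 after surgery. In chronic constriction injury (CCI), silk ligatures were tied loosely around the sciatic nerve, which models neuropathic pain, and the sham group had the surgery alone. MeRIP-seq captures RNA fragments with an antibody against m6A (the IP library) and compares them with RNA that was not captured (the input library). Each group had 1 IP library and 1 input library, and the number of mice behind each was not stated. CCI and sham are thus compared here by values alone, without replicates and without p-values. Read counts are not in the files, and the sequencing depth is unknown.

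The 5′-UTR is the stretch of an mRNA between its cap and the start codon, which a scanning ribosome must cross. m6A is written by the METTL3 and METTL14 complex, mostly at sites that contain the letters GGAC, and is best known near stop codons and in the 3′-UTR. At the first transcribed base a related mark, m6Am, is bound by the same antibody. m6A inside the 5′-UTR is known for its part in translation that does not need the cap, which has been studied in stress and heat shock. 5′-UTRs can also hold upstream open reading frames, internal ribosome entry sites and the starts of alternative transcripts.

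The labelled tissue was checked by its markers. Of the Hox genes, which are expressed in the spinal cord and not in the forebrain, 21 of 23 had a peak in either list. By contrast 1 of 5 forebrain markers had one, and Emx1, Emx2 and Tbr1 were among those with none. A peak was found in 10 of 11 neuron markers, 6 of 7 astrocyte markers, 9 of 9 oligodendrocyte markers, 7 of 8 microglia markers and 4 of 5 markers of Schwann cells and nerve roots.

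No genome sequence was used here, so sequence could be read only where a member reached into a RefSeq start window, which runs from 250 bases before to 50 bases after a RefSeq transcript start (GRCm38.p6). The stretches below are shown because they carry the GGAC letters of the m6A site inside a member that was called over the same bases in both lists. Each is written 5′ to 3′ on the transcript strand, with GGAC in capitals. Olfm1 and Dbx2 met the rule for named genes, and the others were chosen after their values were seen.
Olfm1, chr2:28205686-28205706, plus strand: gcgcgcggGGACgctgcagcg
Dbx2, chr15:95654739-95654759, minus strand: gatgggccGGACacaccttcc
Larp4, chr15:99972794-99972814, plus strand: gggaggagGGACtgggcgggt
Nipa1, chr7:56019552-56019572, minus strand: cggcatggGGACtgcggcggc
Mlc1, chr15:88978517-88978537, minus strand: caaccgccGGACgacagcaga
Iffo2, chr4:139574730-139574750, plus strand: caggcaccGGACccctcacca

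In each stretch shown, the GGAC lay just after a RefSeq start of the same gene. Closeness to such a start was fixed by the windows that could be read. Among stretches not shown, the A of GGAC stood before the start in Spsb3 (-53 bases) and Zcchc14 (-231 bases). The peaks shown lay between 357 (Nipa1) and 44180 bases (Iffo2) from the start of the transcript assigned in the peak list. In Olfm1, which encodes a glycoprotein secreted by neurons, the A of GGAC stood 7 bases from a RefSeq start and the peak stood 12674 bases from the assigned one. The fold enrichment of that peak was 95.2 in CCI and 230 in sham. In Iffo2 the A stood 20 bases from a RefSeq start, within a peak 44180 bases from the assigned start, with fold enrichments of 10.9 and 15.1. Larp4, an RNA-binding protein, had a member of 19.8 in sham and rows of 8.34 and 18.2 over nearly the same bases in CCI. The sham peak was paired by shared bases with the row of 8.34, a log2 ratio of -1.25. Nipa1, a magnesium transporter, had 24.5 and 17.4, and Mlc1, a membrane protein of astrocytes, had 17.3 and 12.7.

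Over all members, 834 in CCI and 880 in sham belonged to a gene with a RefSeq start in the table. Of these, 152 (18.2%, 95% Wilson interval 15.8 to 21) and 168 (19.1%, 16.6 to 21.8) lay over or within 300 bases of such a start. The share was 84.7% and 86.0% for 5′-UTR peaks within 300 bases of the assigned start, and 3.49% and 4.02% for exon peaks. Being away from the assigned start was thus not the same as being away from every start. Members near a RefSeq start had a median fold enrichment of 6.26 in CCI and 5.77 in sham, and the others had 5.71 and 5.13. The intervals cover counting error only, and the table of starts is not complete.

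Where sequence could be read, the shares of members and of start peaks with GGAC differed by less than the intervals of the members. The letters searched were GGAC and GGACT, on the transcript strand only, and GGACT holds GGAC. In CCI, 36 members had at least 50 bases in a RefSeq start window, and 14 of them (38.9%, 24.8 to 55.1) held GGAC. In sham, 13 of 35 did (37.1%, 23.2 to 53.7). Peaks within 300 bases of the start held it in 35.3% of 1219 and 35.9% of 1427. Per 1000 bases read, members had 5.12 matches in CCI and 5.05 in sham, start peaks 5.12 and 5.28, and the first 50 bases after all 32851 RefSeq starts 4.20. The longer GGACT was found in 5 of 36 and in 3 of 35 members, and 5.76% of the first 50 bases after all starts held it. Start peaks held it in 9.52% and 9.95%, and exon peaks in 16.7% of 54 in CCI and 15.9% of 63 in sham. The stretches read in members were longer than 50 bases. Per 1000 bases GGACT had 1.71 matches in members of CCI and 1.19 in sham, against 1.18 after all starts. Start peaks had 1.08 and 1.16, and exon peaks 1.71 and 1.54.

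The members made up 22.1% of the 4932 5′-UTR peaks in CCI (20.9 to 23.3) and 20.8% of the 5524 in sham (19.8 to 21.9). All of them lay downstream of the assigned start. The distance counts introns, and its median was 2880 bases in CCI and 2868 in sham. The middle 50% ran from 772 to 16597 bases in CCI and from 774 to 16576 in sham. In CCI 345 members lay within 1000 bases of the start, 359 lay over 10000 and 84 lay over 100000. The corresponding counts in sham were 368, 377 and 98. The spread of distances was thus similar in both lists.

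**Figure D1:**
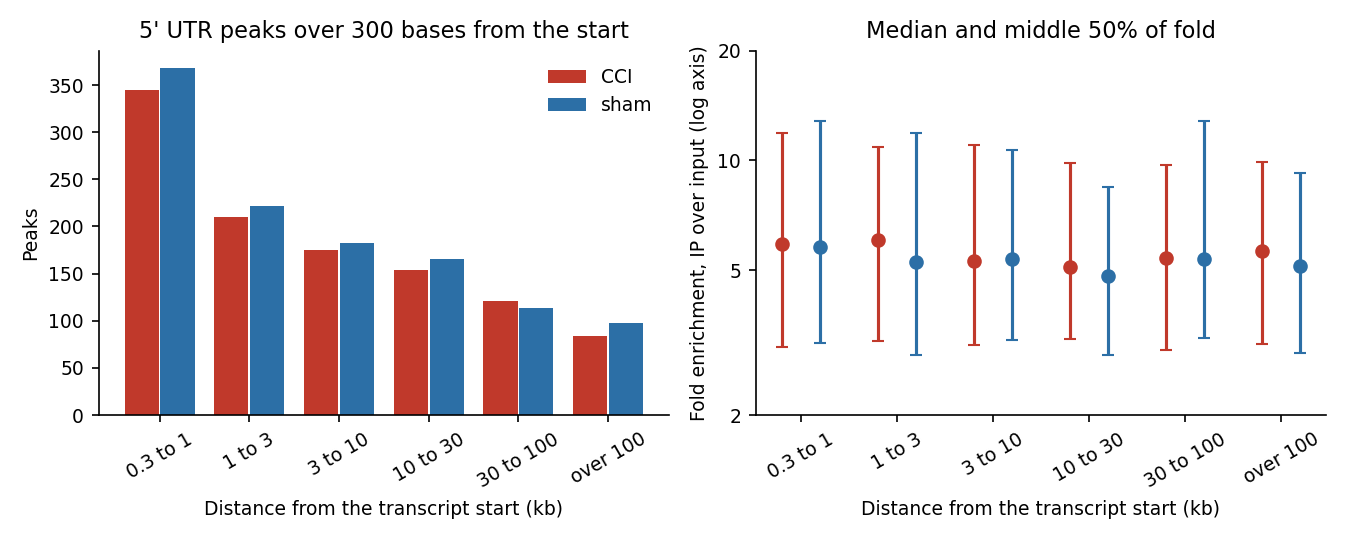
Left, number of 5′-UTR peaks over 300 bases from the assigned transcript start by distance in kb, introns included, in CCI (red) and sham (blue). Right, their fold enrichment of IP over input on a log axis, as median (point) and middle 50% (bar); the medians stay between 4.81 and 6.07 in every band.

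Fold enrichment varied little with the distance. Its median was 5.91 in CCI and 5.78 in sham for members within 1000 bases, and 5.63 and 5.12 for those over 100000 bases. The share of members split over several exon blocks was 22.3% and 24.2% within 1000 bases and 37.7% and 35.2% between 10000 and 30000. It was 40.5% and 35.1% between 30000 and 100000, and 28.1% and 27.0% over all members. The longest distances came from very long transcript models. Fgfr2, a receptor for fibroblast growth factors, was assigned a transcript that spans 2960900 bases. It held 5 members in CCI and 8 in sham, up to 2576055 bases from the start, and the farthest of these lay over Nsmce4a in RefSeq. Of all members, 952 in CCI (87.4%) and 994 in sham (86.4%) lay over the RefSeq coding gene of their name and no other. A second coding gene was present under 78 and 79, and 42 and 53 lay over another coding gene only. Strand was not used for these counts.

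Members were less strongly enriched than 5′-UTR peaks near the start and close to the rest of the transcript. Their median fold enrichment was 5.66 in CCI (middle 50% 3.13 to 10.9) and 5.35 in sham (3.08 to 11.6). Peaks within 300 bases of the start had 9.64 (4.47 to 20) in CCI and 9.73 (4.45 to 20.9) in sham. Exon peaks had 4.69 and 4.78, and 3′-UTR peaks 5.92 and 5.81. A fold enrichment of at least 10 was reached by 27.9% of members in CCI (25.3 to 30.7) and 28.2% in sham (25.6 to 30.8), against 48.2% and 49.2% of the peaks near the start. The median exonic length was 211 bases for the members of both lists and 210 and 211 for the start peaks. The part of peak length in the difference between these classes was not tested.

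**Figure D2:**
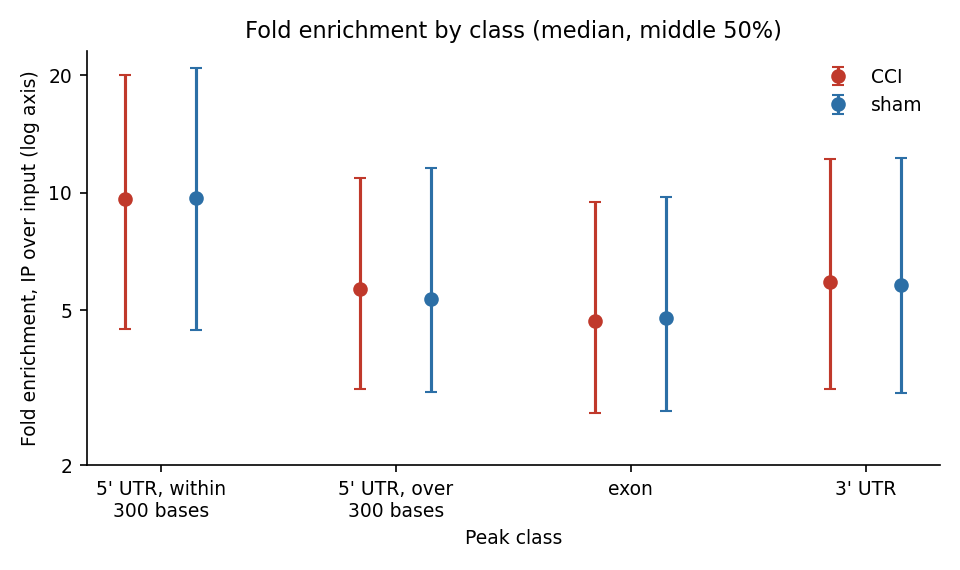
Fold enrichment of IP over input on a log axis for 4 classes of peaks in CCI (red) and sham (blue), as median (point) and middle 50% of peaks (bar). The 5′-UTR peaks over 300 bases from the start have medians of 5.66 and 5.35, below the 9.64 and 9.73 of those within 300 bases.

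The limit of 300 bases cut through a continuous range. Just above it in CCI stood Tbx18 at 304 bases with a fold enrichment of 9.38, Fbrsl1 at 306 with 10.9 and Marc2 at 311 with 1.63. Just below it, at 300 bases, stood Pclo with 10.4, Senp6 with 15.6 and Wnt5a with 3.02, which are 3 of the 4 peaks at that distance. In sham, Rab6a at 304 bases had 2.04, Gabpa at 309 had 4.65 and D17H6S53E at 312 had 32.6. Slc39a3 with 5.37, Tapbp with 17.4 and Trappc12 with 1.57 stood at 300 bases in sham, 3 of 11 peaks there.

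The members belonged to 920 genes in CCI and 980 in sham, and 668 genes had one in both lists. That is 7.41% of the CCI genes with any peak and 7.59% of the sham genes. In CCI 787 genes held 1 member, 110 held 2 and 23 held 3 or more, and the sham counts were 851, 109 and 20. Ggnbp1 had the most in CCI with 9, and in sham Ggnbp1 and Fgfr2 had 8 each. Rap2b, a small GTPase, had 4 and 6 with fold enrichments from 9.50 to 22.1. Most of these genes were also marked elsewhere. A 3′-UTR peak was found in 77.5% of the CCI genes with a member (74.7 to 80.1) and in 78.0% of the sham genes (75.3 to 80.4). A peak near the start was found in 34.0% and 36.4%. Conversely 9.57% of the CCI genes and 9.59% of the sham genes with a start peak held a member.

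The 5 strongest members of each list lay in 8 genes. In CCI the highest fold enrichment was that of Zfp91, a zinc finger ubiquitin ligase, at chr19:12794987-12795526, with 270. Pou3f1, a transcription factor of neural and Schwann cell development, followed with 156 at chr4:124657702-124659551. Ncaph2, a subunit of condensin II, had 112 at chr15:89372316-89372826, and Pcdh17, a protocadherin that joins neurons, had 111 at chr14:84444733-84446142. Olfm1 was the fifth with 95.2 at chr2:28205666-28205904. The stretch in Ncaph2 also lay over Sco2 and Tymp in RefSeq.

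In sham Olfm1 led with 230. Mepce, the enzyme that caps the 7SK RNA, had 211 at chr5:137785633-137786081, and Ncaph2 had 126. Adra2c, the alpha-2C adrenergic receptor, had 124 at chr5:35279128-35279727, and Cic, a transcriptional repressor, had 101 at chr7:25282277-25282636. The Cic member stood 14573 bases from the assigned start and 98 bases from a RefSeq start. All 8 of these genes had an overlapping peak in the other list, although not always of the same class.

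Some of the strongest peaks had another class in the other list, where their borders differed. The Zfp91 member of CCI lay 600 bases from the start, and the sham peak over it reached the start itself with a fold enrichment of 600. The Mepce member of sham, with a separate start peak of 50.2 beside it, was matched in CCI by 1 peak over both stretches, with 134. For Pou3f1 the sham peak over the same bases had 224 and was annotated as 3′-UTR. Over all members of CCI, the best partner in sham was a member for 701 (64.4%, 61.5 to 67.2), a start peak for 106, an exon peak for 41 and a 3′-UTR peak for 7. From the sham side the same 701 pairs were 61.0% of members (58.1 to 63.7), and 55 had a start peak, 74 an exon peak and 21 a 3′-UTR peak as the best partner in CCI. Borders fell on a grid: of 940 borders of single-block pairs 548 differed, and 95.8% of these did so by a multiple of 30 bases to within 1 base.

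Most members were found again in the other list. An overlap of at least 1 exonic base was present for 934 of 1089 CCI members (85.8%, 83.6 to 87.7) and for 913 of 1150 sham members (79.4%, 77.0 to 81.6). The share was 89.8% and 81.0% for start peaks, 85.0% and 79.5% for exon peaks and 89.3% and 88.1% for 3′-UTR peaks. Members with no overlap numbered 155 in CCI and 237 in sham, and they were weaker and shorter. Their median fold enrichment was 4.17 and 3.87, against 6.03 and 5.75 for those with an overlap. Their median log10 false discovery rate was -2.99 and -3.14, against -15.3 and -19.9, and their median exonic length was 120 bases in both lists, against 240 and 241.

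Among the members found in CCI alone, the highest fold enrichments were those of Pomgnt2, a glycosyltransferase of dystroglycan, with 23.5, Inpp5f, an inositol phosphatase, with 20.8, and the orphan receptor Gpr149 with 19.8. In sham alone they were Ltk, a receptor tyrosine kinase, with 30.2, Prkcb, a protein kinase C, with 25.6, and Fgfr2 with 24.4, a value that Mrps6 and Plxna4 shared. Their log10 false discovery rates lay between -4.93 and -11 in CCI and between -5.13 and -6.68 in sham. A missing call in the other list is no measurement of the level there.

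For the 701 pairs of members, the fold enrichment was on balance the same in CCI and sham. The median log2 ratio of CCI over sham was -0.02 (middle 50% -0.42 to 0.41), and 357 of 701 were below 0. Over all 27380 pairs of the lists the median was 0.03. In bulk tissue, fewer cells of a type and less RNA per cell cannot be told apart. A ratio of at least 2 was found in 56 pairs higher in CCI (7.99%, 6.20 to 10.2) and in 71 pairs lower in CCI (10.1%, 8.11 to 12.6). Over all pairs these shares were 8.59% higher and 7.25% lower, so the share of members above the limit was near the background, and the interval of the share below lay above it. When pairs had to share 50% of both peaks, the share below was 7.70%. At a ratio of 1.5, the shares were 19.0% higher and 18.4% lower in members, against 18.8% and 16.4% over all pairs.

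The other classes set the scale for these values. Pairs of start peaks had a median log2 ratio of -0.08, with 12% at least 2-fold higher and 12.3% at least 2-fold lower in CCI. Exon pairs had a median of 0.02 with 7.62% and 5.98%, and 3′-UTR pairs had 0.06 with 8.51% and 6.32%. By distance, the median log2 ratio of members was 0.03 over 204 pairs within 1000 bases, -0.02 over 246 pairs up to 10000 bases and -0.03 over 251 pairs beyond. The ratio of a member bore little relation to the ratio of the 3′-UTR peaks of its gene. Over 538 such pairs Pearson's r was -0.04 and Spearman's rho was -0.04, across peaks that share their libraries and, in part, their genes.

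Large ratios were more frequent among weak peaks. Of the 419 member pairs with a log10 false discovery rate of -10 or below in both lists, 52 differed at least 2-fold in either direction (12.4%, 9.59 to 15.9), against 12.2% of all such pairs in the lists. Of the other 282 member pairs 75 did (26.6%, 21.8 to 32.0), against 22.3% of all other pairs in the lists, a share within that interval. The limit of -10 was chosen after the data were seen.

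**Figure D3:**
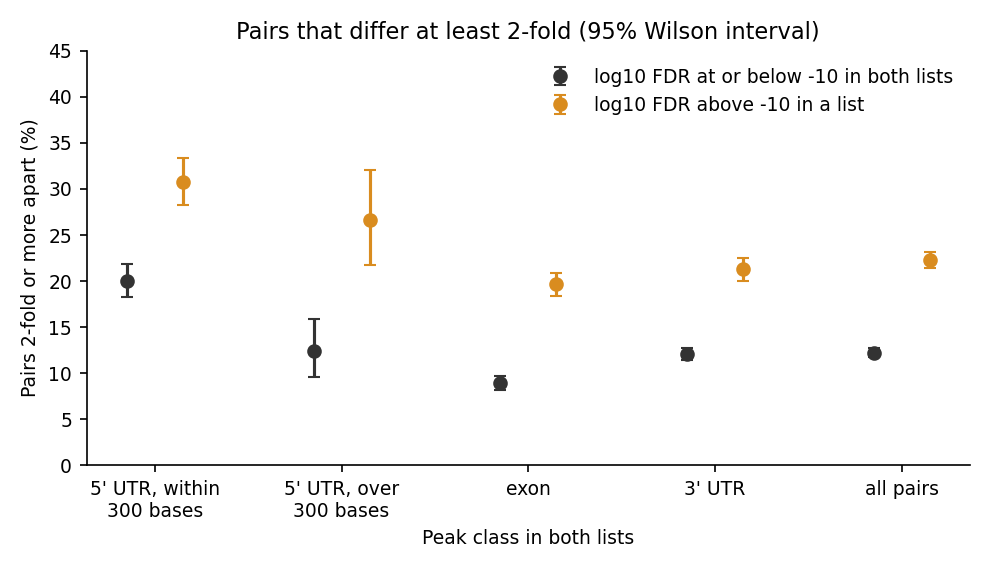
Percent of pairs whose fold enrichment differs at least 2-fold between CCI and sham, by class, for pairs with a log10 false discovery rate (FDR) of -10 or below in both lists (black) and for the others (orange), with 95% Wilson intervals. The 5′-UTR pairs over 300 bases from the start stand at 12.4% and 26.6%.

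The ratio also moved with the length of the peak. In 310 member pairs the CCI peak had fewer exonic bases than the sham peak, and their median log2 ratio was -0.33. In 203 pairs it had more, with a median of 0.30, and in 188 pairs both lengths were equal, with a median of 0.11. Of the 71 pairs at least 2-fold lower in CCI, 58 had the shorter peak in CCI, and of the 56 higher ones, 33 had the longer peak in CCI. The same held over all 27380 pairs, with medians of -0.21, 0.33 and 0.08. There 1497 of the 1986 lower pairs had the shorter peak in CCI, and 1347 of the 2352 higher pairs had the longer one. Over the 138 member pairs with the same borders in both lists the median was 0.13, against 0.07 over the 5237 such pairs of all classes. Of the 138 member pairs, 12 were at least 2-fold higher and 4 lower in CCI, against 383 and 218 of the 5237. The part of peak length in the ratios was not tested.

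**Figure D4:**
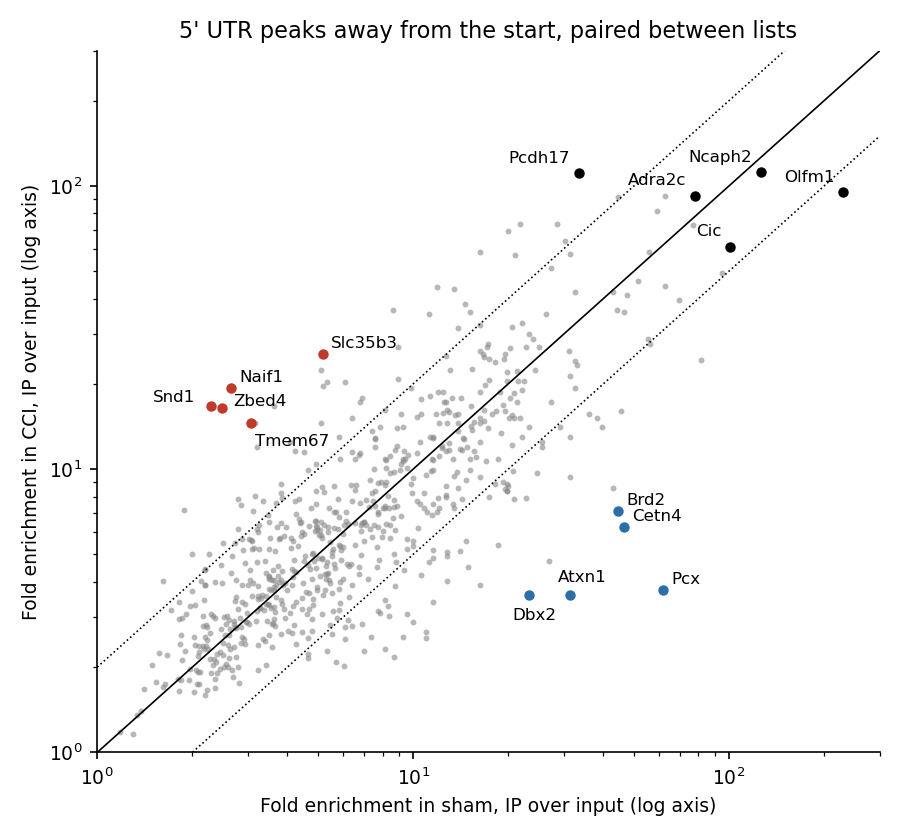
Fold enrichment in CCI against sham, IP over input, both on log axes, for the 701 pairs of 5′-UTR peaks over 300 bases from the start. The solid line marks equal values and the dotted lines a ratio of 2; the 5 largest rises (red) and 5 largest falls (blue) among pairs with a fold enrichment of at least 2 in both lists are named, with the strongest pairs in black.

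The largest falls were found in Pcx, Atxn1, Cetn4, Dbx2 and Brd2. Pcx, pyruvate carboxylase, had a fold enrichment of 3.74 in CCI and 61.6 in sham, a log2 ratio of -4.04, with 180 and 597 exonic bases. Its peak lay 104123 bases from the assigned start and over Lrfn4, a synaptic adhesion protein, as well. Atxn1, the gene of ataxin 1, had 3.61 and 31.4, a log2 ratio of -3.12. Cetn4, a centrin, had 6.25 and 46.5, with -2.90. Dbx2, a homeobox gene of spinal interneuron progenitors, had 3.61 and 23.2, with -2.68, and the stretch printed above lay in both of its peaks. Brd2, a reader of acetylated histones, had 7.13 and 44.4, with -2.64, over a RefSeq start of its own and over H2-DMa as well. All 5 had the shorter peak in CCI. The log10 false discovery rate of the CCI peak was -6.1 in Pcx, -5.08 in Atxn1, -5.52 in Cetn4 and -5.84 in Dbx2. These 4 were weaker than the limit of -10 used above, and Brd2 had -34.6.

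The largest rises were found in Snd1, Naif1, Zbed4, Slc35b3 and Tmem67. Snd1, an RNA-binding coactivator, had 16.7 in CCI and 2.29 in sham, a log2 ratio of 2.87, with 927 and 269 exonic bases. This peak, at chr6:28830731-28831657 in CCI, lay 350383 bases from the assigned start and over Lrrc4, a synaptic adhesion protein, as well. Naif1, a nuclear factor linked to apoptosis, had 19.3 and 2.66, with 2.86. Zbed4, a zinc finger protein, had 16.4 and 2.49, with 2.72. Slc35b3, a transporter of the sulfate donor PAPS, had 25.5 and 5.18, with 2.30. Tmem67, a protein of the primary cilium, had 14.6 and 3.06, with 2.25, over Rbm12b2 as well. The first 4 had the longer peak in CCI, and the Tmem67 peaks had the same 121 bases in both lists. The log10 false discovery rate of the sham peak was only -2.21 in Naif1, -2.84 in Zbed4 and -2.43 in Tmem67. It was -16.1 in Snd1 and -10.4 in Slc35b3. Of the strongest pairs, Pcdh17 was higher in CCI with 111 against 33.4 (log2 ratio 1.73), with 1410 and 1021 exonic bases. The CCI peak of Pcdh17 also covered a second sham member, of 26.3. Olfm1 was lower in CCI with 95.2 against 230 (-1.27), while Ncaph2 differed by -0.17.

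Genes of translational control by the 5′-UTR were next examined. Of all genes with a peak, 7.41% in CCI and 7.59% in sham held a member, which is the background for each list below. Of 24 CCI and 23 sham genes with a peak on the list of the integrated stress response and upstream open reading frames, the same 3 held a member in both lists (12.5% and 13.0%). Eif4g2, a factor of cap-independent initiation, had 27.1 in CCI and 8.94 in sham over the same 211 bases, 1243 bases from the start, a log2 ratio of 1.60. Ppp1r15a, the phosphatase subunit GADD34 that ends the stress response, had 4.34 and 4.26. Slc35a4, whose mRNA carries an upstream open reading frame, had 2.99 and 3.94. Of the 3 genes, Eif4g2 alone differed by over 2-fold.

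Of the genes of cap-independent translation and growth with a peak, 5 of 15 held a member in CCI (33.3%) and 2 of 16 in sham (12.5%). Igf2, insulin-like growth factor 2, had 51.1 in CCI and 27.3 in sham, a log2 ratio of 0.90, over a RefSeq start. Bcl2, which blocks apoptosis, had 20.4 over 689 bases in CCI, which sham split into a member of 13.4 and an exon peak of 4.50. Fgf2, a growth factor, had CCI members of 2.05 and 3.39, over Nudt6 as well, and a sham peak of 3.15 annotated as 3′-UTR overlapped the latter. Xiap, an inhibitor of caspases, had 16.2 in CCI with no overlap in sham. Jun, an immediate early factor, had 2.43 in CCI. A sham start peak of Jun with 3.01 overlapped it in part, and a sham peak assigned to its antisense gene Junos, with 365, covered it. The libraries were prepared with strand (dUTP), but use of strand by the peak caller is not given, so the assignment to Jun or Junos is uncertain.

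In the heat shock list 1 of 14 genes with a peak held a member in CCI (7.14%) and 2 of 15 in sham (13.3%). Dnajb1, an HSP40 co-chaperone, had 3.66 in CCI and 5.53 in sham, a log2 ratio of -0.60. Hspa1a encodes the inducible HSP70, and methylation of its 5′-UTR is a known case. Its member of 6.23 in sham stood 1468 bases from the start, and the CCI peak over it had 4.54 and was annotated as exon. Start peaks of Hspa1a had 17.4 and 11.1 in sham and 7.97 and 9.25 in CCI. Whether the member belongs to the known case was not tested. Hspa1a has a near-identical copy, Hspa1b, so the origin of its reads is uncertain. Of the m6A writers, erasers and readers, 21 of 27 had a peak in each list and 0 held a member in either.

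Of the 55 genes of central sensitisation with a peak, 8 held a member in CCI (14.5%) and 7 in sham (12.7%), 5 of them in both. Bdnf, the growth factor of pain plasticity, had 16.7 in CCI and 15.2 in sham over the same 778 bases, at chr2:109723391-109724168. That peak stood 48691 bases from the assigned start and 470 bases from a RefSeq start. Akt1, a kinase of growth signalling, had 19.0 and 22.1. The NMDA receptor subunits were close as well, with 7.04 and 7.75 for Grin2b and 6.82 and 9.15 for Grin3a. Tacr1, the receptor of substance P, had 2.99 in CCI and 5.74 in sham, a log2 ratio of -0.94, and a second CCI member of 8.99 with no overlap in sham. These 5 genes differed by less than 2-fold in their overlapping members.

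The other genes of that list had a member in 1 list. In CCI these included Egr1, an immediate early factor, with 2.62 and Timp2, a metalloproteinase inhibitor, with 1.31. Egr1 and Timp2 were overlapped in sham by peaks that reached a start, with 16.3 and 1.40, the latter assigned to Cep295nl. In sham they included the neurotrophin receptor Ntrk3 with 4.65, overlapped in CCI by a start peak of 10.9.

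The list of synaptic adhesion and scaffold genes had members in 5 of 21 genes with a peak in CCI (23.8%) and in 7 of 21 in sham (33.3%). The genes of the lists were not matched for length or number of peaks. Homer1, a scaffold of the postsynaptic density, had 32.3 in CCI and 16.3 in sham, a log2 ratio of 0.99, 4223 bases from the assigned start and 101 bases from a RefSeq start. A second pair of members in Homer1 had 7.43 and 7.55, with -0.02. Shank2, another scaffold, had 18.8 and 12.4 over the same 121 bases, 282775 bases from the start. Nrxn3, a presynaptic adhesion protein, had 5.02 and 1.99, a log2 ratio of 1.33, with 241 and 91 exonic bases. Nlgn3, its postsynaptic counterpart, had overlapping rows of 2.52 and 2.61 in CCI and of 3.35 and 3.37 in sham.

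Other genes of this group had a member in 1 list. Dlg1, a relative of PSD-95, had 1.51 in CCI beside a start peak of 106, and the sham start peak that overlapped it had 136. In sham, Cntnap2 had a member of 2.24, overlapped in CCI by a start peak of 3.11. Dlg4, the scaffold PSD-95, had 2.97 in sham with no overlap in CCI. The Cntnap2 member stood 2184406 bases from the assigned start and 71 bases from a RefSeq start.

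**Figure D5:**
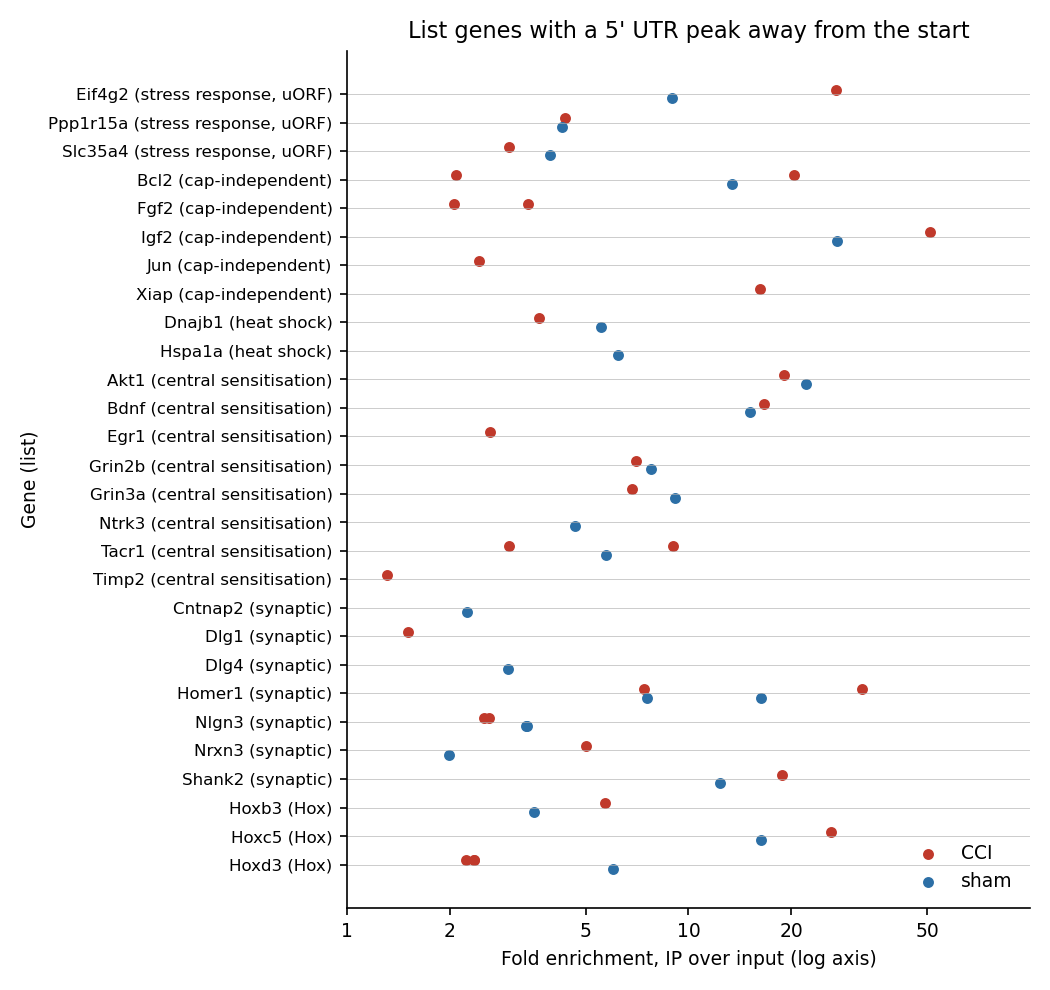
Fold enrichment of IP over input on a log axis for each 5′-UTR peak over 300 bases from the start in the reported genes of 6 lists, in CCI (red) and sham (blue). A gene without a point of a colour had no such peak in that list; Igf2 has the highest value, 51.1 in CCI, and Timp2 the lowest, 1.31 in CCI.

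Hoxb3, Hoxc5 and Hoxd3, transcription factors of segment identity, held members in both lists, 3 of 21 Hox genes with a peak (14.3%). Hoxc5 had 26.1 in CCI and 16.3 in sham, and Hoxb3 had 5.70 and 3.53. Hoxd3 had 3 CCI rows from 2.23 to 2.35 and 1 sham row of 6.03, all over Hoxd4 as well. A CCI peak of 6.4 annotated as 3′-UTR overlapped that sham row, with a log2 ratio of 0.09, and the Hoxc5 peaks lay over Hoxc9. Among the cell type markers, members were found, against the same background of 7.41% and 7.59%, in 1 of 10 neuron genes with a peak, 2 of 6 astrocyte genes, 0 of 9 oligodendrocyte genes in CCI and 1 of 9 in sham, 0 of 7 microglia genes and 2 of 4 genes of Schwann cells and nerve roots. Slc32a1, the vesicular GABA transporter, had rows of 1.16 in CCI and up to 1.30 in sham. The astrocyte genes Gja1, a connexin, and Slc1a3, a glutamate transporter, had 3.32 and 2.99 in CCI and 2.04 and 2.36 in sham. Mag of myelin had a member of 4.07 in sham, overlapped in CCI by a start peak of 4.69. Ncmap and Prx of peripheral myelin had members of 1.56 to 2.80 in CCI and 1.70 to 2.19 in sham.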

How the data were processed

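Spinal cord RNA of CCI and sham mice was sequenced as 1 IP and 1 input library per group. The submitters' processing notes name fastp, HISAT2, HOMER, ChIPseeker and GRCm38, whereas the methods of the paper name Cutadapt, bowtie, MACS2 and ChIPseeker, and the column names are those of exomePeak. Whether strand was used in calling was not given in the sources used here. The authors called peaks per group and deposited for each peak a fold enrichment, which is a ratio of IP over input. A p-value was deposited with each peak from the authors' comparison of IP and input. The deposited log10 false discovery rate was handled as a score, since some values are minus infinity. Another table holds the authors' own fold changes, p-values and false discovery rates of CCI against sham and was not used.

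Members were rows annotated as 5′-UTR with an absolute distance to the transcript start above 300 bases. Overlap meant at least 1 shared base of exonic blocks, and pairs were each other's best partner by shared over joined bases. The log2 ratio is that of the deposited fold enrichments, whose inputs and borders differ between the lists. Medians and shares with 95% Wilson intervals describe these libraries, and no test was run between groups. The steps were tested on simulated peaks. Of 1232 gene names of members, 1193 were symbols and 31 synonyms in RefSeq (GRCm38.p6), 8 had no match, and 943 had a start window with sequence. A motif search over whole peaks was not run, since no genome sequence was used here.

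The genes named were the 5 strongest members per list, the 5 largest rises and falls among pairs with a fold enrichment of at least 2 in both lists, the 3 strongest unmatched members per list, those nearest the limit and those of the gene lists. Some genes of these lists are counted but not reported here by name. Names that start with Gm and a digit or end in Rik were left out, except among gene lists and those nearest the limit. Genes with many members and the printed genes other than Olfm1 and Dbx2 were picked with their values in view. The members, the rules and the gene lists were chosen with earlier results of these data known. Alternatives covered the distance, the strength, the overlap, the ratio and the counting unit. Python 3.11.15, numpy 2.4.6, pandas 2.3.3 and matplotlib 3.10.9 were used.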

Additional observations from a re-analysis of the deposited data

How the results depend on the processing

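With 1 library per group, no replicate could be left out. No paired analysis was possible because there is only 1 IP and 1 input library per group and the results come from no test. Of 72 alternatives 61 moved a result by less than its stated limit, which was the Wilson interval for a share, 1.5 times for a count and 0.1 on the log2 scale for a median or ratio. The 72 and the 61 include settings for the named pairs that could not turn their direction. Centring on the median of all pairs, 0.03, moved each ratio little. Asking for 50% of both peaks gave the same ratio or no pair. The direction of the named pairs was thus not tested. When 1 peak per gene was counted, the highest, the median fold enrichment rose to 6.12 in CCI and 5.81 in sham. Asking for 50% of both peaks to be shared lowered the share of members with a partner to 70.3% in CCI and 66.7% in sham, and lowered the share of pairs at least 2-fold lower in CCI to 7.70%. Of the 10 named pairs, 3 did not share 50% of both peaks, namely Pcx, Snd1 and Zbed4. Pairs strong in both lists, chosen after seeing the data, were at least 2-fold higher in 5.73% and lower in 6.68%. With 1.5-fold as the limit, the shares over all 701 member pairs were 19.0% higher and 18.4% lower. Pairs with the same borders, also chosen after seeing the data, had a median log2 ratio of 0.13 and were at least 2-fold lower in 2.90%. Of the 5237 such pairs of all classes, 218 were at least 2-fold lower. The cause of these moves was not tested, beyond fewer peaks or a lower limit where the setting itself made them so. The files give no counts, so no interval could be put on a single fold enrichment, and 36.1% of CCI members and 37.2% of sham members shared both fold enrichment and p with another peak of their list. The GGAC search covered 36 and 35 members only.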

Other observations

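The deposited annotation gives GO terms for each gene, and 5 terms were chosen after their counts were seen, so their values are a description with no test. Sequence-specific transcription factor activity was carried by 68 of the 920 CCI genes with a 5′-UTR peak away from the start (7.39%, 95% Wilson interval 5.87 to 9.26) and by 73 of the 980 sham genes (7.45%, 5.97 to 9.26). The share was 4.86% and 4.80% over all genes with a peak, and 5.23% and 5.05% over genes with a peak within 300 bases of the start. The term synapse was carried by 6.20% and 5.31% of the genes with such a peak, 3.12% and 2.97% of all genes with a peak, and 4.74% and 4.57% of genes with a start peak. Cell adhesion was carried by 4.02% and 4.29%, against 2.67% and 2.62% of all. Mitochondrion was carried by 6.30% and 6.73%, against 8.60% and 8.34% of all, and extracellular exosome by 9.78% and 9.90%, against 12.5% in each list. These low shares were not particular to the members. Genes with an exon peak had 5.53% and 5.23% for mitochondrion and 9.39% and 9.25% for extracellular exosome. Genes with more or longer exons have more places for a peak, and the shares were not adjusted for that.

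Of the CCI members 183 had over 500 exonic bases and 165 had under 100, and in sham 188 and 192. An overlap with another member of the same list was present for 100 CCI members and 104 sham members, so rows are not all separate stretches, and 1038 and 1097 stretches remained when overlapping members were counted as 1.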
